A study of Sorghum bicolor with 24 samples.

Results

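The 150 sorghum genes described here had lower transcript levels in ABA-treated roots than in the NaOH control roots, and differed little from control in ABA shoots or after PEG in either tissue. They were chosen from 34145 gene models by their RPKM (read number scaled to exon length and to library size). For each of the 4 treatment comparisons the log2 ratio of the mean treated RPKM plus 1 over the mean control RPKM plus 1 was formed. A candidate had a ratio within 0.5 of 0 in ABA shoots, PEG roots and PEG shoots, and its highest ABA root library lay below its lowest NaOH root library. The rule left 3039 candidates, and the 150 with the lowest ratio in ABA roots are the members.

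The libraries are RNA-Seq of roots and shoots of seedlings of Sorghum bicolor line BTx623, grown in nutrient solution and treated at day 8 for 27 h. The 8 groups of 3 libraries are roots and shoots after 20 µM ABA, after its solvent control NaOH, after 20% PEG (polyethylene glycol, which withholds water osmotically), and after its control H2O. The 3 libraries of a group come from 3 hydroponic experiments, each a pool of plants, and the root and the shoot library of 1 number come from the same plants. The labels give the NaOH control as 0.2 M, whereas the study's methods state a far lower concentration.

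Each library held 12891722 to 22840499 reads on gene models (median 15352184). The third experiment and 1 further library were read with a later version of the base calling software. The summed RPKM of 8 genes described as chlorophyll a-b binding proteins or RuBisCO small subunits was 4.42 to 28.2 in the root libraries and 11382 to 35545 in the shoot libraries. Only 1 gene matched the words fixed for root markers, at 0.49 to 4.37 RPKM in roots and 0.81 to 2.99 RPKM in shoots, so it told the tissues apart in neither direction. In whole roots, fewer cells of a type and less RNA per cell cannot be told apart.

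ABA (abscisic acid) is the hormone that plants make when water is short, and it closes stomata, induces protective proteins and restrains growth. Grasses take up iron by releasing phytosiderophores, small iron chelators of the mugineic acid family made from methionine by way of nicotianamine, and by importing the iron chelate through transporters of the yellow stripe family. Each turn of that synthesis releases methylthioadenosine, whose methionine is recycled and whose adenine is salvaged. Root growth also needs expansins, which loosen the wall of elongating cells, and class III peroxidases, secreted enzymes that loosen or cross-link walls. Members of all of these groups are in the set.

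Gene sequences for these identifiers were not used here, so the sequences shown are primer pairs that the study designed for quantitative PCR, each 5′ to 3′ and all in lower case. Of the 6 members with such primers, 3 are given because their genes are a described peroxidase and 2 described transporters. How specific the primers are was not examined.
Sb01g013290 (sulfate transporter, chromosome 1) forward: gttcagaacactcgagaaacgaa
Sb01g013290 reverse: ccgatgagttctgtgaattttg
Sb03g004380 (peroxidase, chromosome 3) forward: gtgtcatgcgctgatatcctt
Sb03g004380 reverse: gagagtctcccgtctcttctcc
Sb08g004915 (amino acid transporter, chromosome 8) forward: tactgcttctccatcaacctcat
Sb08g004915 reverse: cgtagaagcctaagacggtgag

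The 4 comparisons of a treatment with its control were all used to choose the genes and are therefore given as descriptions, with no test. In ABA roots the log2 ratio of the members ran from -4.79 to -1.84 with a median of -2.38, where the median of all 34145 genes was 0. Their level in ABA roots was 0% to 27.0% of that in NaOH roots (median 11.4%), and 64 members were under 10%. The ratios in PEG roots ran from -0.49 to 0.50, and 92 of the 150 were below 0, against 34.9% of all 34145 genes. That share also counts genes with no signal. The members' median ratio in PEG roots was -0.14, against 0.03 over the 22097 genes with a mean of at least 1 RPKM in a group. By the edgeR quasi-likelihood fit over all libraries, 146 of the 150 were called lower in ABA roots, against 8.21% of the 22667 genes tested, a count that the choice of members fixes. A gene is called where the adjusted p is below 0.05, the log2 difference reaches 1 in size and the median coverage of its exons reaches 2X in 1 of the groups compared. At the edge of the set, the ratios of Sb05g005780 and Sb09g006620 just inside it were -1.84 and -1.84, and those of Sb04g008860 and Sb07g026990 just outside it were -1.83 and -1.83, so the limit of 150 falls at no gap.

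**Figure D1:**
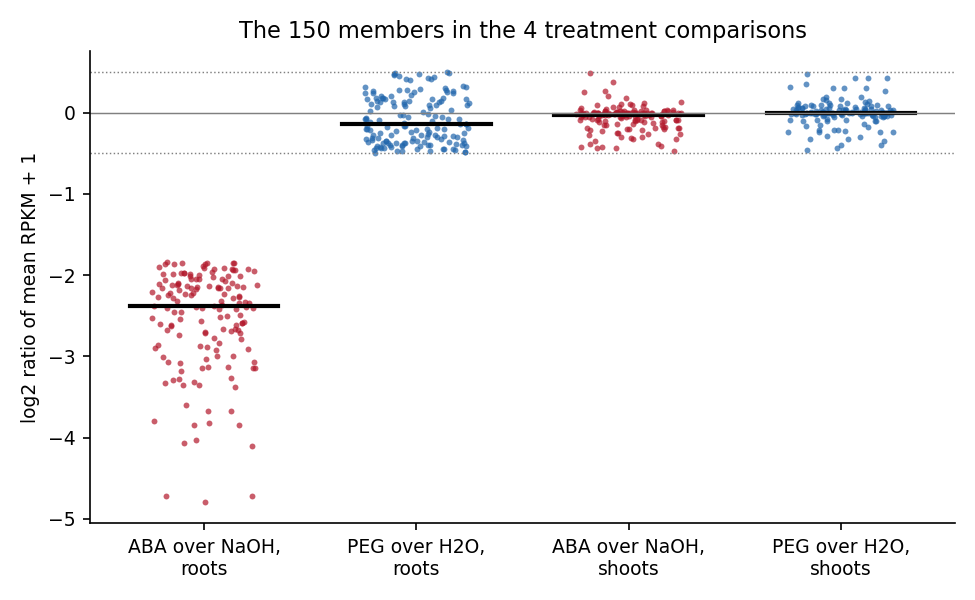
Log2 ratio of mean RPKM plus 1, treated over control, for the 150 members in each of the 4 treatment comparisons; each point is a gene, the bar is the median, and the dotted lines mark the limits of 0.5 in either direction. The points for ABA roots lie between -4.79 and -1.84, and those of the other comparisons lie within the limits, as the rule requires.

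The set was abundant in every kind of root except those given ABA. The summed RPKM of the members was 8337 to 13889 in NaOH roots, 9667 to 10985 in H2O roots, 8998 to 10346 in PEG roots and 1176 to 1380 in ABA roots. The ABA root libraries were thus lowest, and the other 9 root libraries overlapped with each other. The rule itself fixes the ABA sums below the NaOH sums and keeps PEG roots close to H2O roots. The 10 members with the highest level held 57.5% of the summed mean RPKM in NaOH roots.

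The H2O and PEG root libraries were not compared with ABA roots by the rule. In 145 of 150 members every ABA root library lay below all 6 H2O and PEG root libraries, against 15.1% of the 28336 genes with any signal. Against the 3 H2O root libraries alone it was 149 members, against 22.1% of genes. These counts share the ABA libraries with the rule, and the rule kept PEG close to H2O.

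The most abundant member belongs to iron acquisition. Sb01g037480-1 (chromosome 1, 61031332 to 61033270 in the sbi1 build) is described as similar to ZmNAS2, a maize nicotianamine synthase, the enzyme that joins S-adenosylmethionine into nicotianamine. Its RPKM was 1248, 796 and 1991 in the NaOH roots and 76.9, 53.5 and 114 in the ABA roots. The H2O roots were at 1226, 1232 and 2014, and the PEG roots at 1317, 911 and 1332. No ABA library came near the other 9, and its mean was 6.05% of that in NaOH roots.

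A pair of members on chromosome 8, Sb08g016350-1 (43394893 to 43396719) and Sb08g016370 (43447740 to 43449505), are similar to iron-deficiency specific clone No.3, in barley a dioxygenase that hydroxylates mugineic acids. Sb08g016350-1 measured 523, 452 and 497 RPKM in NaOH roots and 46.0, 40.4 and 63.2 RPKM in ABA roots. Sb08g016370 measured 591, 515 and 550 RPKM in NaOH roots and 55.7, 52.1 and 78.2 RPKM in ABA roots. Both lay in a narrow range in the controls, and their H2O roots were at 523 ± 52.6 and 605 ± 47.4 RPKM (SD, n = 3).

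A further pair, Sb04g033320 and Sb04g033330 (chromosome 4, 63221002 to 63231148 together), are similar to yellow stripe 1, the root importer of iron phytosiderophores. Sb04g033320 measured 349, 334 and 433 RPKM in NaOH roots, and 47.0, 51.0 and 53.3 RPKM in ABA roots. Its neighbour was lower throughout, at 18.3, 17.5 and 24.6 RPKM in NaOH roots and 2.83, 2.23 and 1.84 RPKM in ABA roots. The levels of the pair differed more than 10-fold, while their levels in ABA roots were 13.6% and 11.4% of those in NaOH roots.

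The set also holds enzymes of the adenine side of methionine recycling. Sb08g019790, similar to adenine phosphoribosyltransferase 1, which turns free adenine back into AMP, measured 675, 727 and 845 RPKM in NaOH roots and 136, 148 and 163 RPKM in ABA roots. Sb04g029970, similar to ribose-phosphate pyrophosphokinase 4, which makes the sugar donor for that reaction, measured 384, 363 and 438 RPKM in NaOH roots and 64.1, 61.0 and 65.8 RPKM in ABA roots. Unlike the iron genes proper, both were also transcribed in shoots, where the H2O libraries were at 63.3 ± 3.20 and 17.3 ± 2.07 RPKM (SD, n = 3). In roots, Sb08g019790 was at 618, 624 and 585 RPKM after PEG and at 749, 808 and 909 RPKM in H2O. Summed over the 7 iron and adenine salvage members, PEG roots were at 3174 to 3706 RPKM and H2O roots at 3902 to 4939 RPKM. Of these, Sb04g033330 was not lower, with means of 23.2 RPKM in PEG roots and 21.0 RPKM in H2O roots.

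The lowest ratio of all was that of Sb08g008410 (chromosome 8, 16290761 to 16298043), similar to an antiporter of the major facilitator superfamily, a family of small-molecule transporters. It measured 272, 262 and 319 RPKM in NaOH roots, and 4.31, 4.34 and 19.3 RPKM in ABA roots. Its H2O roots were at 320, 277 and 420 RPKM and its PEG roots at 383, 389 and 368 RPKM. The third ABA library was above the other two, yet more than 10-fold below every control library.

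**Figure D2:**
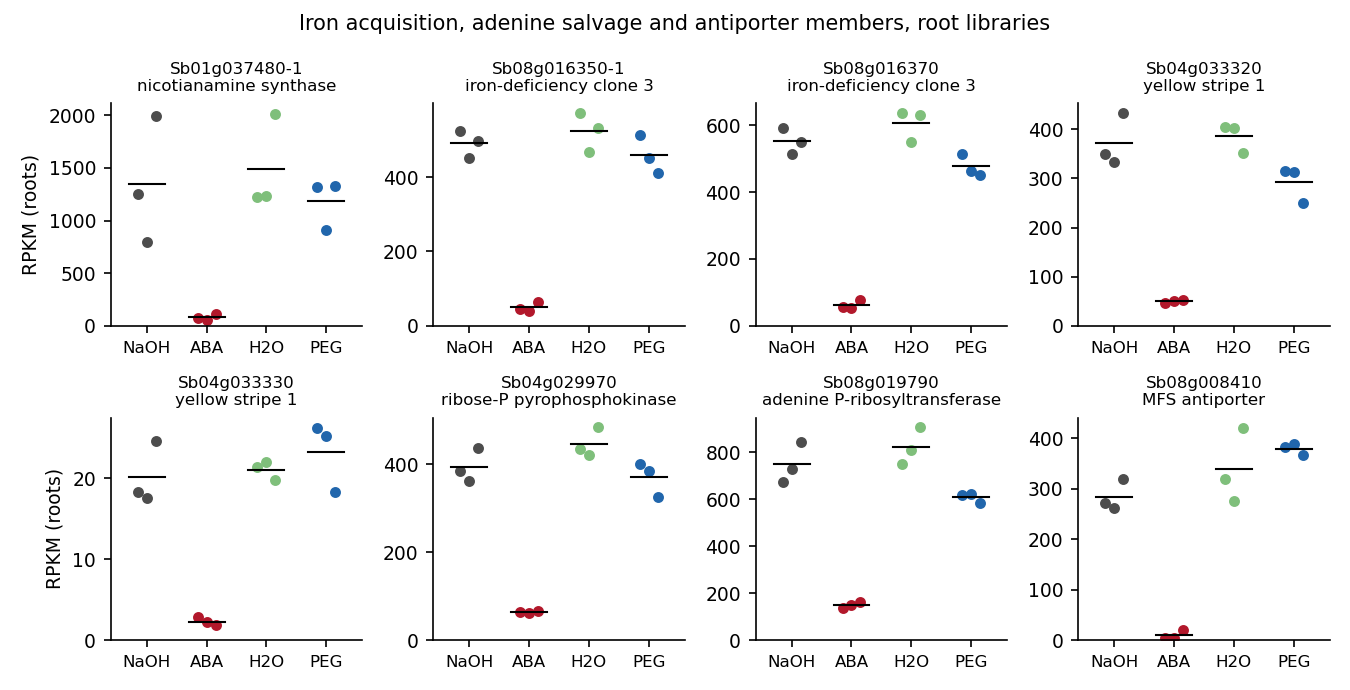
RPKM in the 12 root libraries of 8 members of iron acquisition, adenine salvage and the antiporter; points are libraries in the order of their replicate numbers, and the bar is the mean of 3. In each panel the 3 ABA points lie below the other 9.

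To see how far the rest of the pathway followed, 21 genes were gathered by words for iron uptake, nicotianamine and the methionine cycle, a list made after the names of the members had been seen. It holds 7 members. Of the 14 others, edgeR called 6 lower and 4 higher in ABA roots and left 4 uncalled, beside 8.21% lower and 5.44% higher of all genes tested. The descriptions come from the study's own lists of changed genes, so these shares are not those of the pathway at large. Over all 22667 genes the median edgeR log2 difference was -0.02.

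Among the 6 lower genes were further steps of methionine recycling. Sb07g026190, similar to methylthioadenosine nucleosidase, which frees the adenine, was at 66.6 RPKM in ABA roots and 297 RPKM in NaOH roots, a log2 fold change of -2.22 ± 0.10 (SE, edgeR adjusted p = 1.83e-11). In PEG roots Sb07g026190 was lower too, at -0.55 ± 0.10 (SE, edgeR adjusted p = 0.00135). Its ratio of -0.52 there lay outside the rule's limit. Sb01g021500, similar to the acireductone dioxygenase of the same cycle, changed by -1.56 ± 0.14 (SE, edgeR adjusted p = 4.9e-08). S-adenosylmethionine synthetase 1, Sb03g013170-1, changed by -1.26 ± 0.19 in roots but by 1.54 ± 0.19 in shoots (SE, edgeR adjusted p = 3.56e-05 and 1.2e-05). It therefore went opposite ways in the tissues.

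Formate dehydrogenase 2, Sb04g030310, which oxidises the formate that the methionine cycle gives off, showed the same split, at -3.37 ± 0.38 in roots and 2.07 ± 0.38 in shoots (SE, edgeR adjusted p = 8.62e-07 and 0.000549). So did Sb01g012430, similar to an iron regulated metal transporter, at -1.47 ± 0.27 in roots and 1.38 ± 0.31 in shoots (SE, edgeR adjusted p = 0.00023 and 0.00301). Its shoot means were 5.49 RPKM with ABA and 1.91 RPKM with NaOH. Sb01g012440, similar to an iron regulated transporter, was lower after both treatments, at -6.67 ± 1.20 after ABA and -3.51 ± 1.02 after PEG in roots (SE, edgeR adjusted p = 0.00041 and 0.0458). Its NaOH root libraries were uneven, at 5.93, 3.62 and 98.4 RPKM.

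The 4 higher genes include close relatives of members. Sb08g016390 lies 73397 bases beyond Sb08g016370 and carries the same description, iron-deficiency specific clone No.3. It measured 10.9, 9.42 and 8.53 RPKM in NaOH roots and 185, 181 and 138 RPKM in ABA roots, a log2 fold change of 4.07 ± 0.53 (SE, edgeR adjusted p = 4.99e-06), and rose in shoots too, by 3.49 ± 0.58 (SE, edgeR adjusted p = 0.000231). The 3 neighbours with 1 description therefore fell on opposite sides in ABA roots. Sb01g013150, similar to nicotianamine synthase 3, rose by 2.14 ± 0.38 (SE, edgeR adjusted p = 0.000191), although ABA root replicate 3 was at 7.54 RPKM where the others were at 32.9 and 30.1 RPKM. Sb02g043670, with the same description, went the other way but was not called, at -0.79 ± 0.22 (SE, edgeR adjusted p = 0.00819). The 2 ferritins, which store iron in plastids, rose by 1.84 ± 0.33 and 1.34 ± 0.44 (SE, edgeR adjusted p = 0.00017 and 0.0239).

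**Figure D3:**
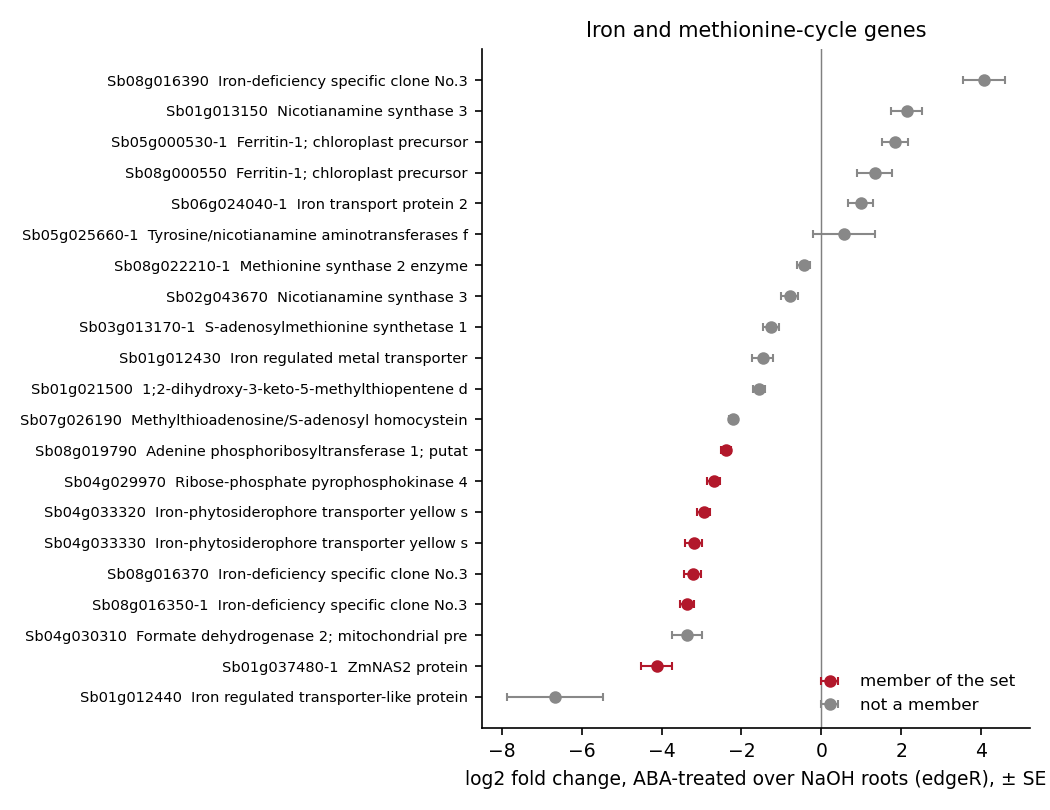
Log2 fold change in ABA roots over NaOH roots from the edgeR fit, with its standard error, for the 21 genes of the iron and methionine-cycle list; members of the set are red and were chosen on this contrast, the others are grey. The members lie between -4.12 and -2.39, and of the grey genes Sb08g016390 stands farthest to the right at 4.07.

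Other nutrient transport was represented by 1 member, Sb01g013290 (chromosome 1, 12317509 to 12321325), similar to the high-affinity sulfate transporter ST1. It measured 54.9, 56.7 and 73.0 RPKM in NaOH roots and 5.52, 5.37 and 4.10 RPKM in ABA roots. Of the 30 genes described as nutrient and ion transporters, 27 are not members, and of these 8 were called lower and 9 higher in ABA roots and 10 were not called, beside 8.21% and 5.44% of all genes tested. Another 2 members are transporters of other kinds, an ABC transporter (Sb02g027350, 10.4 against 48.6 RPKM) and an amino acid transporter (Sb08g004915, 3.75 against 17.5 RPKM). Sb04g006600, similar to a cation-transporting ATPase, had 28.9, 32.9 and 32.0 RPKM in ABA roots and 215, 237 and 271 RPKM in NaOH roots.

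Among the members, 6 are expansins. Sb01g046700 (expansin A12) measured 16.4, 12.4 and 24.8 RPKM in NaOH roots and 1.0, 0.51 and 1.20 RPKM in ABA roots. Sb01g029310 (expansin B6) measured 33.7, 26.2 and 93.7 RPKM in NaOH roots and 5.50, 3.58 and 5.24 RPKM in ABA roots. The third NaOH library was high in both, and over the 6 genes it was 1.66 to 3.13 times the mean of the other libraries. Even so, no ABA root library of the 6 summed to more than 16.8 RPKM, against at least 90.7 RPKM in NaOH, 96.2 RPKM in PEG and 110 RPKM in H2O roots.

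Of the expansins, 3 lie together on chromosome 1 between 24484487 and 24541302. They are Sb01g021070 and Sb01g021080, both similar to expansin A31, and Sb01g021040, similar to expansin A28. Their mean levels were 24.8, 25.3 and 15.6 RPKM in NaOH roots and 1.93, 3.81 and 2.11 RPKM in ABA roots. Reads were kept only where they matched 1 place, so reads shared by near-identical copies were counted for none of them. The levels of tandem copies are uncertain to that extent. The same limit applies to the neighbouring yellow stripe and iron-deficiency clone genes. Among the 28 described expansins that are not members, 14 were called lower and 2 higher in ABA roots, beside the 8.21% and 5.44% of all genes tested and within the same selected descriptions.

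A further 8 members are peroxidases. Sb06g033840, an anionic peroxidase, measured 94.2, 69.2 and 169 RPKM in NaOH roots and 8.01, 5.83 and 6.55 RPKM in ABA roots. Sb09g004660 measured 295, 219 and 266 RPKM in NaOH roots and 33.0, 30.7 and 31.3 RPKM in ABA roots. Sb03g016510 measured 75.5, 57.4 and 80.0 RPKM in NaOH roots and 7.91, 7.40 and 6.18 RPKM in ABA roots. These are separated by wide margins, whereas in Sb05g001030 the NaOH libraries were spread over 41.4, 31.3 and 17.5 RPKM above ABA libraries of 3.99, 4.50 and 4.18 RPKM. The 8 kept 4.10% to 25.9% of their NaOH level in ABA roots. Of 36 other described peroxidases 21 were called lower and 6 higher in ABA roots, beside 8.21% and 5.44% of all genes tested. These descriptions too exist only for genes that the study listed as changed.

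**Figure D4:**
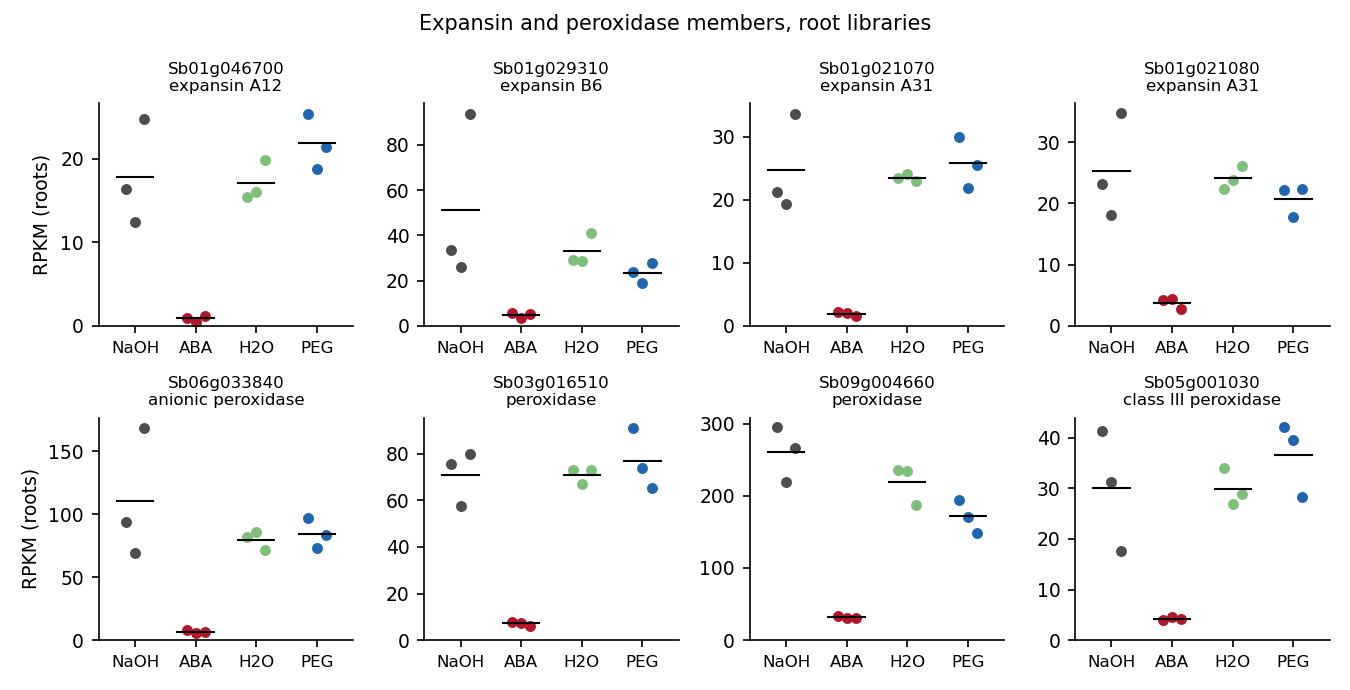
RPKM in the 12 root libraries of 4 expansin and 4 peroxidase members; points are libraries in the order of their replicate numbers, and the bar is the mean of 3. The ABA points are lowest in each panel, and the third NaOH library stands highest in the 4 expansins and in Sb06g033840 and Sb03g016510.

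Genes named for the root were also members. Sb04g032680, similar to RCc3, a rice protein known from roots, measured 416, 274 and 1027 RPKM in NaOH roots and 29.0, 27.8 and 40.5 RPKM in ABA roots. Sb03g047150, similar to root cap protein 1, measured 107 ± 33.2 RPKM in NaOH roots and 21.7 ± 4.45 RPKM in ABA roots (SD, n = 3). Sb06g024790, known only by a rice clone name, was the second most abundant member, at 897, 605 and 1996 RPKM in NaOH roots and 35.2, 27.4 and 68.0 RPKM in ABA roots. Its H2O roots, at 844, 785 and 751 RPKM, were even.

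The list of defence and secreted proteins holds 5 members. Of these, 3 are germin-like proteins, a family of secreted, manganese-binding proteins. The pair on chromosome 7, Sb07g005280 and Sb07g005300, was low everywhere, at 4.67 and 5.92 RPKM in NaOH roots and 0.12 and 0.31 RPKM in ABA roots. Their H2O roots were lower than their NaOH roots, with log2 ratios of mean RPKM plus 1, NaOH over H2O, of 1.03 and 1.08. The third, Sb01g004590, had an edgeR log2 difference of -3.34 ± 0.37 (SE) in ABA roots. Sb01g029450, of the protease inhibitor and lipid transfer family, measured 98.5 ± 49.4 RPKM in NaOH roots and 15.6 ± 4.42 RPKM in ABA roots, and Sb10g030530, a GDSL lipase, 9.69 ± 2.49 RPKM and 0.85 ± 0.09 RPKM (SD, n = 3).

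By the study's lists, 6 members belong to transcription factor families. Sb01g045710, a bHLH gene, had the fifth-lowest ratio of the set, at 18.1, 16.1 and 31.5 RPKM in NaOH roots and 0.39, 0.28 and 0.45 RPKM in ABA roots. A further 2 bHLH genes, Sb06g012030 and Sb01g047940, had 71.2 and 10.4 RPKM in NaOH roots and 12.6 and 1.90 RPKM in ABA roots. The other members are a homeobox gene (Sb01g022420), a bZIP gene (Sb03g024260) and an orphan (Sb07g006830), with 8.23, 29.3 and 15.7 RPKM in NaOH roots. Sb08g002420, described as a C3HC4 zinc finger protein, was at 7.41 RPKM in NaOH roots and 1.33 RPKM in ABA roots.

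No member is in the list of ABA response genes, of which 11 of 14 were called higher and 1 lower in ABA roots, beside 5.44% and 8.21% of all genes tested. The lists of cytochromes P450, wall structural proteins, wall polysaccharide remodelling, phenylpropanoid and laccase genes, and cytokinin, gibberellin and ethylene genes also hold 0 members, of 43, 23, 33, 20 and 18 described genes. No described gene matched the words for suberin and the Casparian strip. Receptor kinases, auxin, cell division, glycosyltransferases and cellulose synthesis have 1 member each, of 30, 21, 33, 35 and 7. Of the 150 members 144 carry a description, but 83 of these name only an uncharacterized protein, a clone or a locus, and 61 name a function. In the whole series 4001 genes carry a description. Whether 0 or 1 member is few for lists of this size was not tested.

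Some members with the same name sat side by side. Within 5 gene models of each other, 23 members formed 10 groups, and 7 of these hold 15 members that share a description with a neighbour. Besides the iron, expansin and germin-like groups these are acid phosphatase-like genes on chromosome 4 (Sb04g000890 and Sb04g000940), 3 genes similar to H0315F07.1 on chromosome 6 between 58351655 and 58375274, and 2 genes similar to Os06g0490400 on chromosome 10. No test was made of how often genes lie so close. Reads were counted without regard to strand, so overlapping transcripts cannot be told apart.

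Next, it was asked where these genes are transcribed without treatment. Of the 150 members, all of which passed the filter on low counts, 135 were called higher and 1 lower in H2O roots than in H2O shoots, against 17.6% and 17.8% of all 22667 genes tested. In H2O shoots 131 members (87.3%) had a mean RPKM under 1. A gene near 0 in shoots stays within the rule's limits there unless a treatment raises it, so this comparison is not free of the rule. Ranking by the ratio in ABA roots also favours genes with a high level in control roots. The 2889 candidates that are not members met the same limits but were not ranked this way, so the shares are given side by side only. Of the 2635 tested 30.6% were called higher and 5.88% lower in roots, and 38.1% of the 2889 were under 1 RPKM in H2O shoots.

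In all 3 H2O shoot libraries 36 members had 0 reads. Set against a floor of 3 reads per library, their root level was at least 2.79-fold to at least 4026-fold higher, with a median bound of 41.9-fold. The top of that range is Sb08g016350-1, with 11505 to 18502 reads in the H2O root libraries, and Sb06g024790 follows with at least 3174-fold. Sb01g037480-1, the nicotianamine synthase gene, had 0, 0 and 2 reads in H2O shoots and 32770 to 89929 reads in H2O roots. In 62 members with more than 3 reads in a shoot library the median log2 difference was 4.18, from -3.27 to 11.01.

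The exception was Sb02g027570, similar to the cellulose synthase-like protein OsCslE1, an enzyme family of wall polysaccharide synthesis. It measured 17.8, 16.1 and 19.5 RPKM in H2O roots and 90.3, 116 and 135 RPKM in H2O shoots, a log2 difference of -3.27 ± 0.18 (SE, edgeR adjusted p = 1.35e-12). With ABA it was at 1.21, 1.15 and 1.26 RPKM in roots but at 108, 136 and 114 RPKM in shoots, where NaOH shoots had 84.7, 121 and 93.3 RPKM. So this gene was well transcribed in shoots and its shoot level with ABA overlapped that of the control. With PEG its shoot level was lower by edgeR, at a log2 difference of -0.65 ± 0.16 (SE).

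The next smallest differences between the tissues were not called. Sb01g022420, the homeobox gene, differed by a log2 of -0.47 ± 0.38 (SE, edgeR adjusted p = 0.295), and its H2O root libraries lay within the range of the shoot libraries. Sb10g020970, weakly similar to EL5, differed by 0.04 ± 0.28 (SE, edgeR adjusted p = 0.908). Its RPKM was nevertheless higher in H2O roots (4.71, 5.88 and 5.63) than in H2O shoots (3.75, 2.52 and 4.07). The edgeR scaling sets root levels lower against shoots than RPKM does, by a median of 0.59 on the log2 scale over 16320 genes of at least 1 RPKM in both. In all, 14 members were not called, and 10 of these missed the depth of 2X in both tissues.

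**Figure D5:**
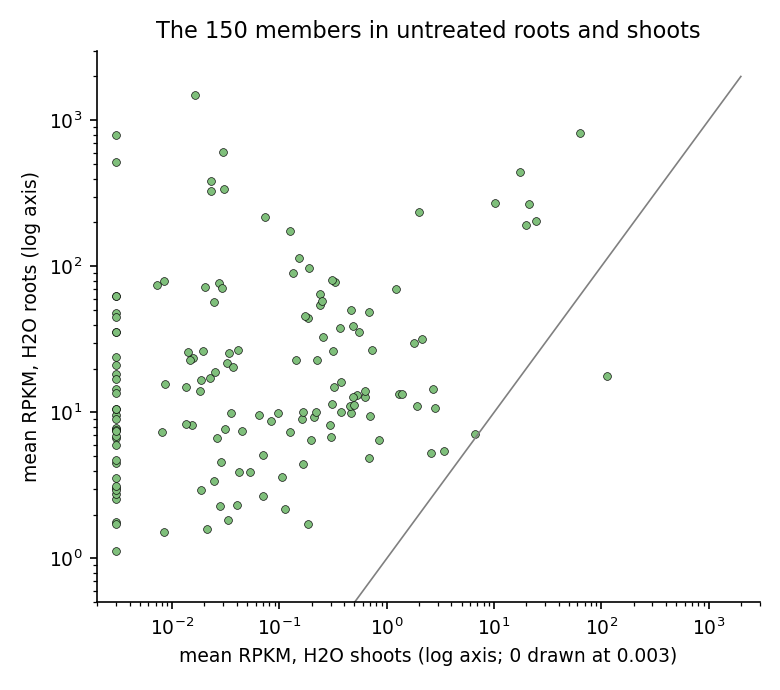
Mean RPKM of the 150 members in H2O roots against H2O shoots (both axes logarithmic, shoot means of 0 drawn at 0.003); each point is a gene and the line marks equal levels. Most points lie far to the left of the line, and Sb02g027570, at 114 RPKM in shoots and 17.8 RPKM in roots, lies to its right.

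The other 3 treatment comparisons were also part of the rule. No member was called in ABA shoots, against 4.01% of genes lower and 3.16% higher, in PEG roots, against 1.45% and 2.03%, or in PEG shoots, against 2.00% and 2.73%. With no limit on size or depth, 2 members had an adjusted p under 0.05 in PEG roots and 4 in PEG shoots, against 7.89% and 16.2% of genes. The 2 in PEG roots were Sb08g019790 and Sb05g008680-1, both lower than in H2O. The 4 in PEG shoots were also lower, Sb02g027570 among them.

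Shoot levels were so low that the rule's limit there, which adds 1 RPKM, hardly constrains a lowering in most members. By edgeR, which adds none, 14 members had an adjusted p under 0.05 in ABA shoots too, against 21.5% of all genes tested. Of these, 13 had a log2 difference of -1 or lower, against 5.85% of all genes. None of the 13 reached the depth for a call, and their NaOH shoot means were 0.06 to 0.56 RPKM. A relative change in shoots could therefore be judged only in members with a measurable shoot level. Of these, Sb08g019790 had 62.1 ± 2.00 RPKM in ABA shoots and 62.6 ± 5.26 RPKM in NaOH shoots, and Sb04g006600 had 8.64 ± 0.60 RPKM and 9.94 ± 0.46 RPKM (SD, n = 3). Sb04g006600 is the remaining gene of the 14, with an edgeR log2 difference of -0.32 ± 0.11 (SE) in ABA shoots.

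Last, the controls were compared with each other. No member was called between NaOH and H2O roots by edgeR or DESeq2 (smallest edgeR adjusted p = 1), nor was any other gene by edgeR. At an unadjusted p under 0.05 there were 19 members, all higher in NaOH roots, against 1.59% of all genes. By the log2 ratio of mean RPKM plus 1, NaOH over H2O roots, 10 members were at 1 or higher and 0 at -1 or lower. The share over all genes was not formed for this ratio. The choice of members used the NaOH libraries as the high side. In shoots 0 members were called by either tool and 7 had an unadjusted p under 0.05, against 2.50% of genes.

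NaOH root replicate 3 was often the highest NaOH root library of these genes. It was the highest of the 3 in 103 members, and in 29 members it was more than 2 times the mean of the other two, where H2O roots showed this in 2 members. In the expansins it was 1.66 to 3.13 times that mean, while in the iron and adenine salvage members it was 0.99 to 1.95 times that mean. In 14 members, the germin-like pair on chromosome 7 among them, it was under 0.5 times that mean. The ranking favours a high mean in NaOH roots, which 1 high library raises, and it did not use H2O roots this way. Shares over all genes were not formed, so whether this pattern is particular to the members was not tested.

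In a few members the ratio rested on this library. Sb02g002130, a gene with no description and the second-lowest ratio of the set (-4.72), had 0.68, 0.62 and 76.2 RPKM in NaOH roots, 0, 0 and 0.05 RPKM in ABA roots and 0.26, 0.22 and 2.88 RPKM in H2O roots. Without NaOH root replicate 3 its ratio was -0.70, and that of Sb09g023180 went from -3.82 to -2.42. Without this library 146 of 150 members had a ratio of -1 or lower. Without all libraries of replicate number 3 it was 145, and all 150 had one when those of number 1 or of number 2 were left out. Sb04g007270 showed the reverse, with 31.0, 31.8 and 11.9 RPKM in NaOH roots and 14.5, 15.1 and 12.6 RPKM in H2O roots. Without that NaOH library it was the 1 member called between the controls, at a log2 difference of 1.15 ± 0.19 (SE, edgeR adjusted p = 0.0484).

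Of the remaining genes that the rules for naming bring in, Sb05g022710-1 had 1.76 ± 0.24 RPKM in ABA roots and 38.8 ± 3.01 RPKM in NaOH roots, and Sb02g040740 had 5.52 ± 0.83 RPKM and 89.3 ± 27.5 RPKM (SD, n = 3). Both are named only by a locus or as uncharacterized. In every ABA root library 11 members had 3 reads or fewer, and Sb02g001320 had 0 reads in all 3, against 24, 18 and 61 reads in NaOH roots. These 11 had 2.94 to 25.8 RPKM in NaOH roots, where the median member had 15.8 RPKM.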

How the data were processed

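The authors trimmed reads to 50 bases, aligned them to the sorghum build sbi1 with ELAND_rna, keeping unique matches, and counted aligned bases on exons of gene models with CASAVA 1.6. Base calls used RTA 1.5 or 1.6. The deposited counts are aligned bases, which were divided by 50 and rounded here to give read counts. The deposited RPKM values, scaled by the authors to library total and exon length, chose the members. The deposited depth, a coverage of bases over exon length, served for the 2X cutoff of the study's methods. Genes were tested with edgeR 4.0.16 in R 4.3.3 (TMM scaling, filterByExpr, robust quasi-likelihood test, 1 mean per group over 24 libraries, Benjamini-Hochberg adjustment over 22667 genes), with DESeq2 1.42.0 as an alternative. The study used edgeR on quantile-normalised counts, and its lists of changed genes were used for descriptions only. Precision is limited by 3 libraries per group, and counting intervals were not formed. The test was tested on simulated data.

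The members and the gene lists were chosen with earlier results of these data known. Lists are words in gene descriptions that the study gives for its changed genes, and 5 members with a suffixed identifier took the description of the plain one. Coordinates are those of the files. Genes named are the 10 members with the lowest ratio and the 10 with the highest NaOH root level, up to 4 of each list with at least 2 members, the 3 largest and 3 smallest root-shoot differences, members called between controls, and 2 on each side of the limit. Others (the iron list, root cap protein 1, the third experiment's exceptions) were chosen after their values were seen.

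Replicate numbers mark separate hydroponic experiments, and deviations of same-numbered libraries correlated at 0.14, 0.23 and 0.41 between NaOH and H2O roots, at 0.58, 0.56 and 0.28 between NaOH and H2O shoots, at 0.20, 0.23 and 0.12 between ABA and NaOH roots, and at 0.15, -0.03 and 0.12 between H2O roots and shoots of the same plants.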

Additional observations from a re-analysis of the deposited data

How the results depend on the processing

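Membership depended on the rule's settings. With 0.1 RPKM added in place of 1, 77 of the 150 members were kept from 1999 candidates and the median ratio in ABA roots of the original members was -3.08, and with 0.5 RPKM that median was -2.71. The other settings (a limit of 0.4 or 0.6, 0.5 RPKM added, TMM-scaled values) kept 106 to 136 members. Leaving out 1 replicate number at a time kept 109 to 126 members, from 3744 to 4592 candidates, with a median ratio of -2.46 to -2.33, and without NaOH roots replicate 3 alone the median was -2.32. Members called between H2O roots and shoots numbered 117 to 145 over all alternatives and stayed within 1.5 times the 136 called. Between NaOH and H2O roots the count was 0 in all alternatives but 1: without NaOH roots replicate 3, chosen after seeing the data, it was 1, Sb04g007270, so leaving out libraries gave 0 to 1, and the cause was not tested. Leaving out H2O shoots replicate 2, also chosen after seeing the data, changed no count between H2O and NaOH shoots. With the replicate number as a block, 137 members were called between H2O roots and shoots, 0 between the controls in either tissue and 146 between ABA and NaOH roots, so the pairing changed no other call count by more than 1. Depth limits the low side of the ratios, with a median of 39 reads per member in an ABA root library.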
